A study of Homo sapiens with 2 samples.

Results

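The protein genes of the cytosolic ribosome were examined in the triple-negative breast cancer line SUM159 after it had become resistant to doxorubicin. Members were the gene symbols in both count files that begin with RPL or RPS followed by a number, with or without the endings A, X, L, L1 or AL, together with the P stalk genes RPLP0, RPLP1 and RPLP2 and the gene RPSA. The rule found 86 of 23368 symbols, 53 of the large and 33 of the small subunit. The cells were labelled wild type, were grown attached and had been exposed to the drug in pulses of rising dose, each with a drug-free recovery. Polyadenylated RNA from 2 libraries of this 1 condition, replicate 1 and replicate 2, was sequenced after a directional library preparation. Treatment-naïve and paclitaxel-resistant cells were not analysed here, so levels are given and no change with resistance was tested. Since no source describes the libraries as separate cultures, the spread between them may be technical.

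A ribosome is built from ribosomal RNA and a set of proteins of which most are needed in 1 copy, and a dividing cell spends a large share of its messenger RNA on these proteins. Most of the genes have a start of pyrimidines, the 5′ terminal oligopyrimidine tract or 5′ TOP, through which mTOR signalling controls their translation. They are also the parents of very many processed pseudogenes, copies of the spliced messenger RNA inserted elsewhere in the genome, and a few have true paralogs, most of them named with an ending in L. Loss of 1 copy of several of these genes causes Diamond-Blackfan anaemia, and unassembled RPL5 and RPL11 bind MDM2 and stabilise p53.

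The sequences around the start were taken from the RefSeq promoters of GRCh38.p14, which matched 68 of the members by symbol with 84 starts. A start was counted as a 5′ TOP where the first base was C and the next 4 were each C or T, on the strand of the gene. This was so at 47 of 84 starts of members, or 56.0%, against 7.23% of 83 starts of mitochondrial ribosomal protein genes and 4.07% of all 35116 starts. A gene with several starts, such as RPL10, enters at each of them, so these are not shares of genes. A tract beginning within 5 bases of the start on either side was found at 70.2% of member starts and 21.1% of all. The pentamer TCTTT within the same distance was found at 20.2% of member starts and 1.96% of all. The hexamer TATAAA of the TATA box, sought at any place on both strands over 250 bases before and 50 after the start, was at 8.33% of member starts and 11.5% of all. These are shares of starts with the hexamer and not with a working TATA box. The starts of 9 members on which the values below turn are shown from 10 bases before the start to 15 from it, with the pyrimidine tract in capitals. The first 6 have a tract at the start and the last 3 have none within 5 bases.
RPLP1, chr15:69452808-69452832, plus strand: ggcgcgagagCCCCTTTCCTCagct
RPS6, chr9:19380222-19380246, minus strand: gaagttggccCTCTTTTCCgtggcg
RPL39, chrX:119791616-119791640, minus strand: ccgccagcttCCCTCCTCTTCCTTT
RPS18, chr6:33272065-33272089, plus strand: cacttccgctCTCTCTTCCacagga
RPL21, chr13:27251548-27251572, plus strand: ccgcctctttCCTTTCggccggaac
RPL36A, chrX:101391001-101391025, plus strand: ctcgcggtttCTTTCTTTCCgcgcc
RPL17, chr18:49492451-49492475, minus strand: ttccctaagcagcctgaggtgagtg
RPS27L, chr15:63157463-63157487, minus strand: gatgccgagcgcagatcgcttgcag
RPL7L1, chr6:42879606-42879630, plus strand: gtgcggcgccgtagctaggagcgga

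The counts in genes summed to 23044084 in replicate 1 and 17985508 in replicate 2. At these totals 1 count is 0.0434 and 0.0556 counts per 1000000 counts of the library (CPM), and a count of 0 allows up to 3 counts, or 0.130 and 0.167 CPM, for counting error only. The mesenchymal marker VIM had 8159 and 6925 CPM, whereas the epithelial markers CDH1 and EPCAM had at most 13 counts in a library. The leukocyte marker PTPRC had 48 and 31 counts, and CD3D had 3 and 0. The libraries stood apart in the 45S precursor of ribosomal RNA, RN45S, with 4653 CPM in replicate 1, against 453.9 CPM in replicate 2, a ratio of 10.2.

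Transcripts of the ribosomal proteins took 8.118% of all counts in replicate 1 (95% Wilson interval 8.107 to 8.129) and 5.655% in replicate 2 (5.645 to 5.666). The intervals cover counting error only and the libraries differed by far more, with a ratio of 1.44. Of these shares the large subunit had 4.837% and 3.414% and the small subunit 3.281% and 2.241%. The median member had 834.6 CPM in replicate 1 and 555.9 in replicate 2, or 690.7 CPM in the mean of both libraries, against 34.08 CPM over the 12340 genes that averaged 20 counts or more. This minimum, which the methods of the study set, was reached by 80 of the 86 members. Over the 73 members at or above 10% of the members' median, called not near 0 in what follows, the SD between the libraries was 27.1% of the mean for the median member. No member was among the 10 genes of highest mean CPM, but 15 were among the first 50, 32 among the first 100 and 52 among the first 200.

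**Figure D1:**
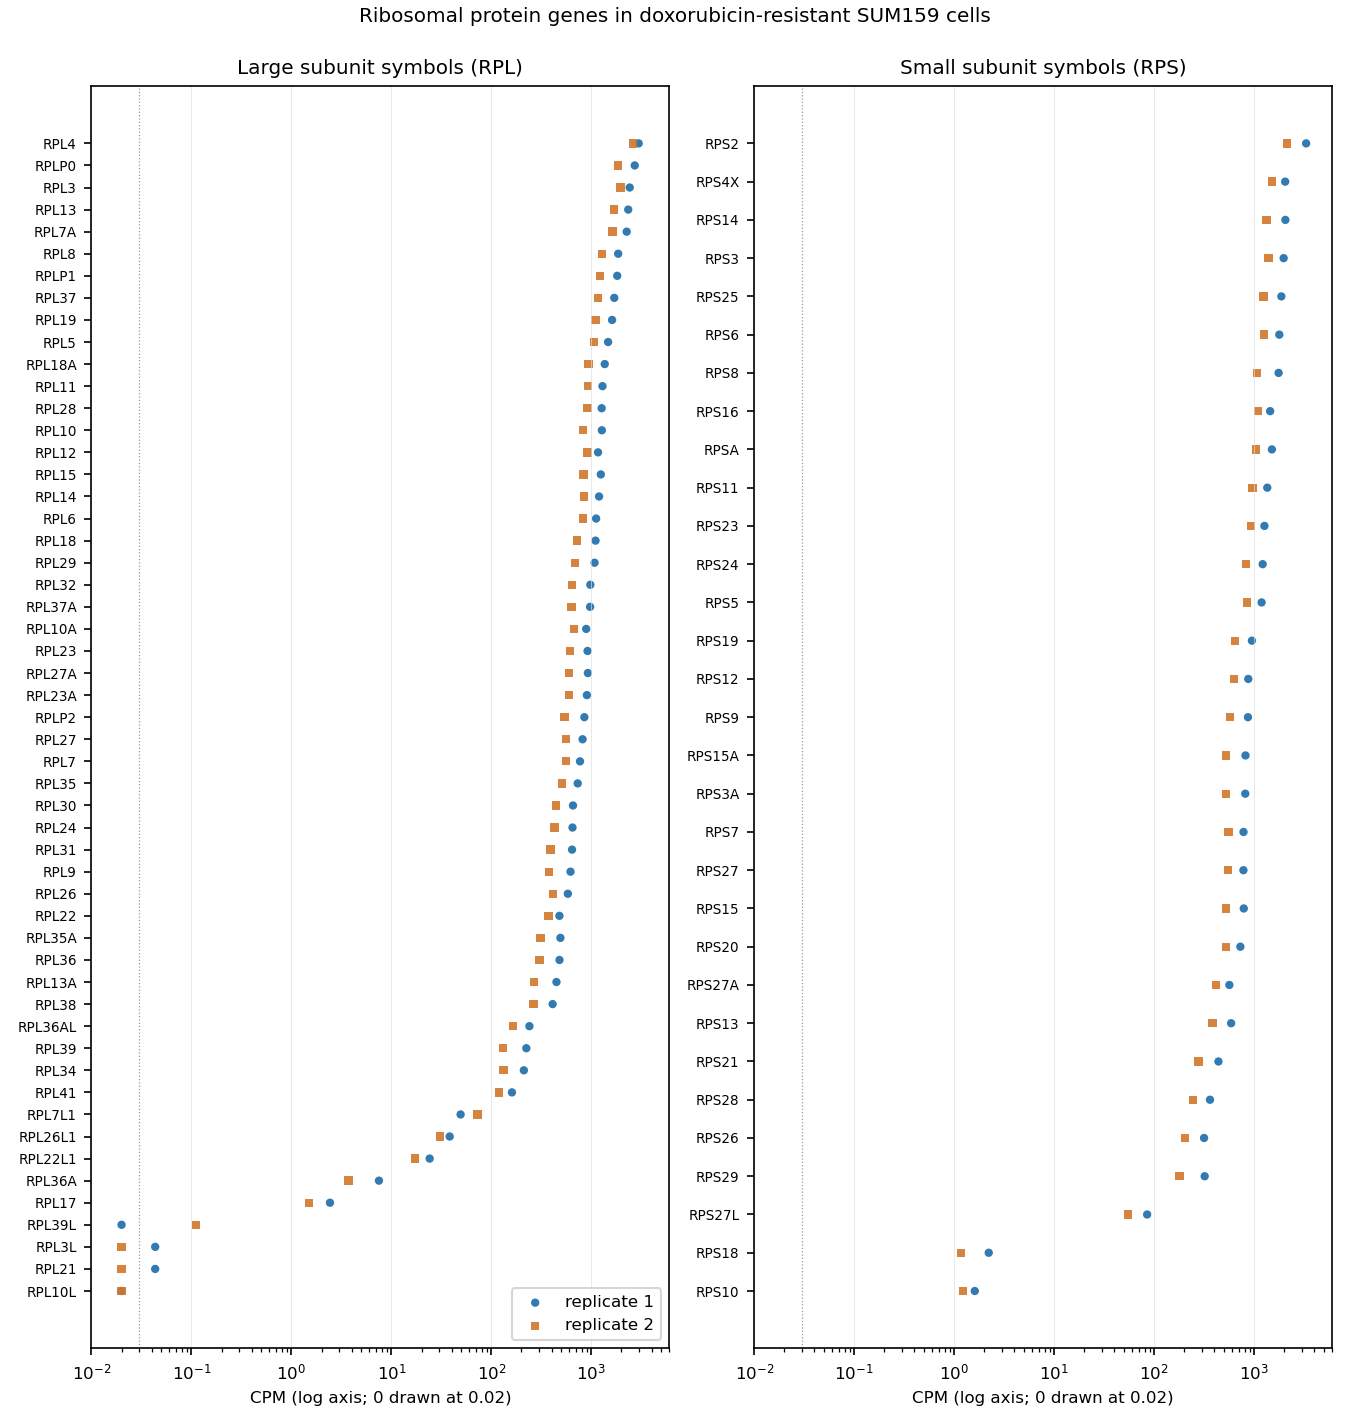
CPM of 84 ribosomal protein genes on a log axis, large subunit on the left and small subunit on the right, ordered by the mean. Circles are replicate 1 and squares replicate 2, with 0 drawn at 0.02 left of the dotted line. Most members lie between 100 and 3308 CPM with replicate 1 to the right of replicate 2, and 11 of those drawn fall below 69.07 CPM.

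The highest CPM of the large subunit were those of RPL4, a protein of the wall of the exit tunnel, with 2973 in replicate 1 and 2610 in replicate 2. RPLP0, the base of the P stalk that recruits the GTPase factors of translation, had 2714 and 1840 CPM. RPL3, which lies near the peptidyl transferase centre, had 2418 and 1962 CPM, and RPL13 had 2336 and 1688 CPM. In the small subunit RPS2, a protein near the entry of the messenger RNA, was the highest, with 3308 and 2115 CPM. All of these were higher in replicate 1. CPM count reads and grow with the length of a transcript, so levels were compared between genes as CPM per kb.

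Per kb of coding sequence, the 73 members that were not near 0 had a median of 1696 CPM per kb in the mean of both libraries, with quartiles of 1239 and 2243. Their coefficient of variation was 46.9%. The order differed from that of the raw CPM: RPL37, a short protein of the large subunit, was the highest with 4908 CPM per coding kb, followed by RPLP1 with 4434, and RPL4 had 2179. At the lower end was the paralog RPS27L with 277.5. The medians of the subunits were close, with 1683 CPM per coding kb over 44 large-subunit and 1751 over 29 small-subunit members. Per kb of the median protein-coding transcript, the median was 1261, with quartiles of 783.6 and 1713 and a coefficient of variation of 56.4%, and RPLP1 was the highest with 3407. In that measure the large subunit had 1283 and the small 1201, so the order of the subunits depended on the length used. Across these 73 genes, which share libraries and depth, the Spearman rho between the CPM of replicate 1 and replicate 2 was 0.994.

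The acidic stalk proteins RPLP1 and RPLP2 form dimers on RPLP0. RPLP1 had 1813 CPM in replicate 1 and 1220 in replicate 2, and RPLP2 had 850.7 and 538 CPM. Per coding kb the 3 stalk genes had 2394 (RPLP0), 4434 (RPLP1) and 2013 (RPLP2) in the mean of both libraries. All 3 were above the median of the members. RPS6, the substrate of the S6 kinases downstream of mTOR, had 1783 and 1260 CPM. RPSA, which also serves as a laminin receptor, had 1503 and 1038 CPM. RPS27A, made as a fusion of ubiquitin with a small-subunit protein, had 564.2 and 411.9 CPM.

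Of the genes named for Diamond-Blackfan anaemia or MDM2 binding, 7 of 8 described here were not near 0. RPL5 had 1470 CPM in replicate 1, against 1056 in replicate 2, and RPL11 had 1291 and 930.6 CPM. RPS19, the gene most often affected in the anaemia, had 948.7 and 643.4 CPM, and RPS24 had 1215 and 833.6 CPM. RPS7 had 781.7 and 552.1 CPM, RPL35A had 490.1 and 309.1 CPM, and RPS26 had 315.2 and 201.7 CPM. RPS10, also mutated in the anaemia, was near 0 and is described below. Ribosome components whose symbols the rule does not match were not near 0 either. FAU, which encodes a small-subunit protein, had 344.3 and 253.5 CPM, and GNB2L1, the older symbol of the scaffold RACK1, had 2765 and 2181 CPM.

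Below 10% of the family median, or 69.07 CPM, were 13 members, and 10 of these were below 1%. By CPM per kb of the median protein-coding transcript, over the 85 members with a length, there were also 13. They were not the same 13, as RPS27L, with 86.54 against a median of 1113, was among them. The member nearest to the threshold from below was RPL7L1, with a mean of 60.83 CPM, and the nearest from above was RPS27L, with 69.92 CPM. Of the 13 by CPM, 7 end in L or L1 and 6 do not. No counts at all were found for 3 members, among them RPL10L, and under 3 counts in each library for 6 members including these.

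Of those that do not end in L, 5 are described here, RPS18, RPS10, RPL17, RPL21 and RPL36A, each an ordinary core protein of the ribosome. RPS18, a protein of the head of the small subunit, on chromosome 6 of GRCh37 (chr6:33239852-33244288), had 51 counts in replicate 1 and 21 in replicate 2, or 2.21 and 1.17 CPM. RPS10 (chr6:34385231-34393846) had 37 and 22 counts, or 1.61 and 1.22 CPM. RPL17 (chr18:47014823-47018878) had 56 and 27 counts, or 2.43 and 1.50 CPM. These 3 lay between 0.205% and 0.285% of the family median. RPL36A (chrX:100645812-100651143) had 173 and 67 counts, or 7.51 and 3.73 CPM. RPL21 (chr13:27825499-27830828) had 1 count and 0 counts. Replicate 1 alone gave the same 13 members near 0, and replicate 2 alone gave 13 with RPS27L in place of RPL7L1. Counts measure the reads that the authors assigned to a gene, and a low count cannot be told apart from reads that were not assigned to it.

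RPS18 lies in the major histocompatibility complex, and its neighbours were low as well. Within 100 kb the annotation has 13 other protein-coding genes, of which 4 averaged 20 counts or more and 8 had under 5 counts in each library, with a median of 0.121 CPM. The highest was WDR46, a nucleolar protein of small-subunit assembly, with 193 counts in replicate 1 and 136 in replicate 2, or 8.38 and 7.56 CPM. TAPBP, the chaperone tapasin of antigen presentation, had 76 and 50 counts, VPS52 of the retrograde transport complex had 46 and 22, and the histone chaperone DAXX had 42 and 23. The transcription factor ZBTB22 and the glycosyltransferase B3GALT4 had none, PFDN6, a subunit of the prefoldin chaperone, had 3 and 2, and RING1 of the Polycomb complex had 3 and 0. The others, COL11A2, RXRB, SLC39A7, HSD17B8 and RGL2, had at most 9 counts in a library. RPS18 was thus in the range of its neighbours. The remaining members on chromosome 6 other than RPS10 and RPL7L1 were not near 0: RPL10A (chr6:35436178-35438562) had 887.5 and 670 CPM, and RPS12 (chr6:133135708-133138703) had 872.8 and 630.3 CPM. In the mitochondrial family, MRPS18B (chr6:30585617-30594172), which also lies in the complex, was the lowest of 76 genes, with 1 count in each library. Its position was looked up after its value was seen. Whether a place in the complex has a part in the low counts was not tested. The genome sequence used here holds no alternate versions of the complex, and whether the authors' reference did was not given in the sources used here.

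**Figure D2:**
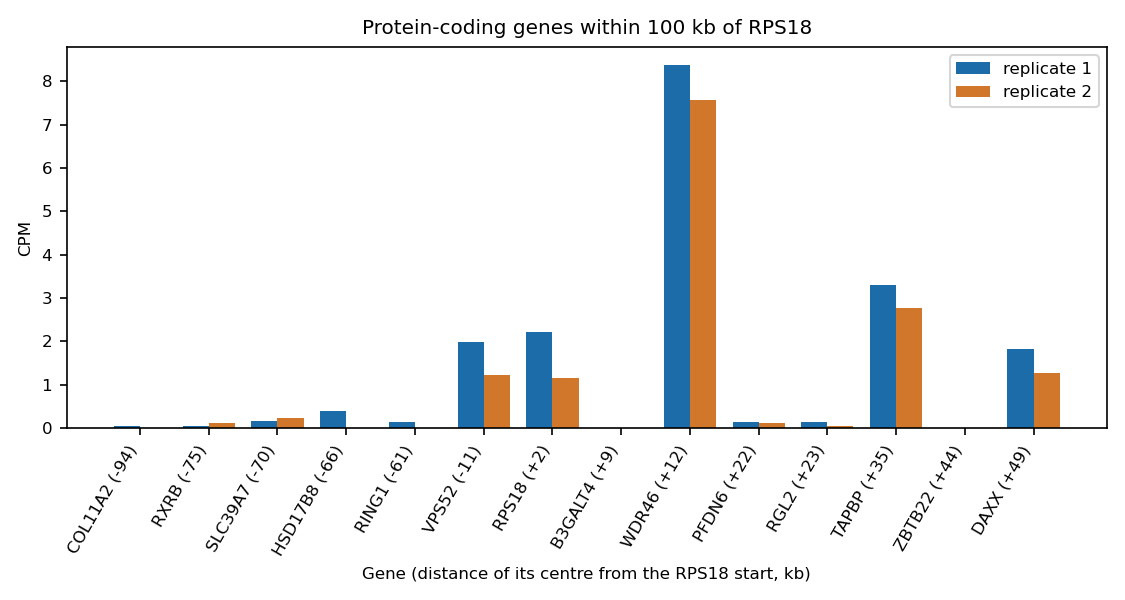
CPM of RPS18 and of the 13 other protein-coding genes within 100 kb, ordered by the distance of the gene's centre from the RPS18 start. Bars are replicate 1 (left of each pair) and replicate 2, without error bars since each is 1 library. RPS18 has 2.21 and 1.17 CPM, WDR46 is the highest with 8.38 and 7.56 CPM, and 8 of the neighbours have under 5 counts in each library.

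RPS10, RPL17 and RPL36A share coding sequence with a readthrough gene, a transcript that runs on into the next gene and has a symbol of its own. The readthrough symbols RPS10-NUDT3, RPL17-C18ORF32 and RPL36A-HNRNPH2 are in the count files, and all 3 had 0 counts in both libraries. They are the only readthrough symbols of members there. In the annotation of GRCh37 these genes cover 92.1% of the coding bases of RPS10, 100% of those of RPL17 and 94.3% of those of RPL36A, on the same strand. The partner NUDT3, a diphosphoinositol phosphatase, had 130 counts in replicate 1 and 106 in replicate 2, C18orf32 had 12 and 6, and the RNA-binding protein HNRNPH2 had 2 and 0. Among the genes in the files, a same-strand overlap of this kind was found for no other member. Outside the family, the helicase of translation initiation EIF4A1 also had 0 counts in both libraries. Its readthrough SENP3-EIF4A1, looked up after this value was seen, had 0 and 6. EIF3C, another initiation factor, had 4 and 0 counts. Whether a readthrough gene has a part in low counts was not tested. Opposite-strand overlaps were found for RPS23, which shares 54.1% of its coding bases with ATG10, and for RPS3A, which shares 26.4% with SH3D19. These members were not near 0, with 1266 and 923.4 CPM for RPS23 and 814.2 and 523.8 CPM for RPS3A. Whether reads in such overlaps were assigned by strand was not given in the sources used here.

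RPL21 had no counts beyond 1, and stretches of its sequence have exact copies in GRCh37. To count these, each 100-base window of the coding sequence with up to 50 bases of messenger RNA on either side was sought as an exact match elsewhere in the genome, on both strands. Of the windows of RPL21, 100% had a copy. The matches lay at 22 other places, where a place needs only 1 matching window. The stretch on chromosome 10 (chr10:122114170-122114735) held all 467, and the next, on chromosome 7, held 343. RPL36A had copies of 99.3% of its windows, at 3 other places, and each of these windows had a match on chromosome 11 (chr11:16996193-16996591). RPS10 had copies of 68.0% of its windows, RPL17 of 64.1% and RPS18 of 26.2%.

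Copies were also found for members that were not near 0. Of 85 members scanned, 58 had at least 1 window with a copy and 18 had copies of at least 50% of their windows, against 5 and 0 of 76 mitochondrial ribosomal protein genes. Of the 18, 4 were near 0 and 14 were not. RPL39, a short protein of the exit tunnel, had a copy of 100% of its windows on chromosome 6 (chr6:74082784-74083036), and had 223.5 CPM in replicate 1 and 131.6 in replicate 2. RPS27 had copies of 95.8% and 780.2 and 548.7 CPM, and RPS26 had copies of 93.4% and 315.2 and 201.7 CPM. The scan left out untranslated sequence beyond 50 bases, which counts can include. RPL39 has 153 coding bases against a median transcript of 390, RPS26 345 against 1140 and RPS27 252 against 352. Over the 73 members not near 0, the median was 1298 CPM per coding kb for the 14 with copies of at least 50% of the windows and 1811 for the other 59. The Spearman rho between the share of windows with a copy and CPM per coding kb was −0.206 over these 73 genes, which share libraries, depth and the length by which both are divided, and it is given as a description. Symbols of ribosomal protein pseudogenes in the files, 28 in number, held 0.004188% of counts in replicate 1 and 0.004187% in replicate 2, and 8 of them had none. The highest of these was RPSAP58 with 291 and 160 counts. Reads at copies without a symbol in the files do not enter this share, and RPL21 alone has at least 1 matching window at each of 22 other places.

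**Figure D3:**
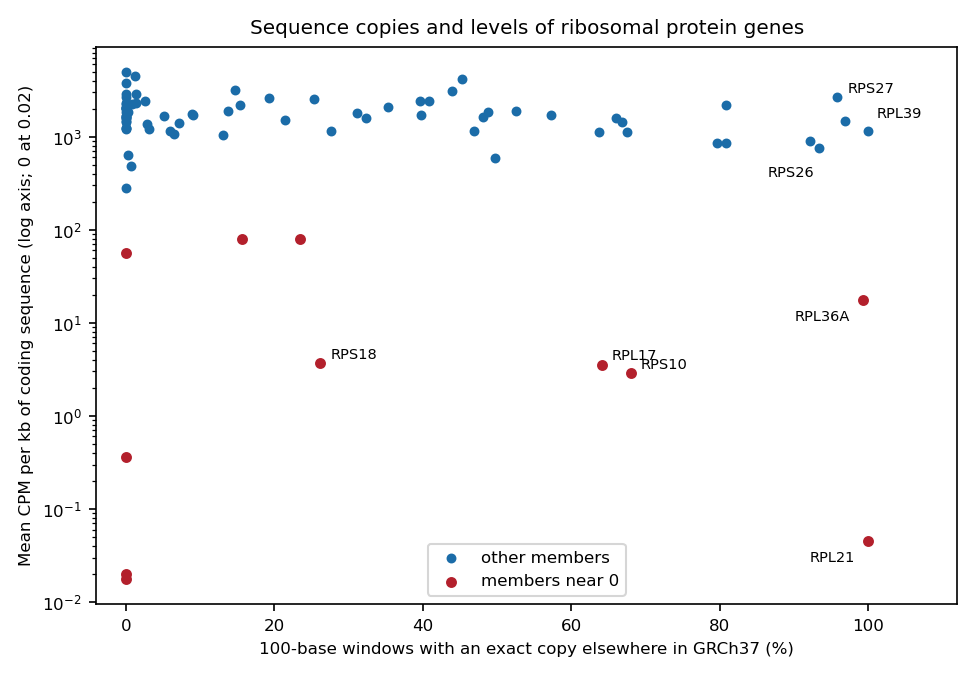
Mean CPM per kb of coding sequence (log axis, 0 drawn at 0.02) of 84 ribosomal protein genes against the percent of their 100-base windows with an exact copy elsewhere in GRCh37. Red points are the members near 0 and blue points the others. Of the 18 genes at 50% or more, 14 are blue, among them RPL39 at 100% with 1160 CPM per coding kb, and 4 are red, among them RPL21 at 100% with 0.0452.

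Of the 9 members named as paralogs with an ending in L, L1 or AL, 7 were near 0 by CPM, and RPL36AL and RPS27L were not. RPL36AL, a paralog of RPL36A, had more counts than its partner: it had 240 CPM in replicate 1 and 164.7 in replicate 2, and took 97.0% and 97.8% of the pair by CPM per coding kb. This share rests on the low counts of RPL36A, with its readthrough symbol and its copies, and a low level of RPL36A cannot be told apart from reads that were not assigned to it. The coding sequences of the pair have the same length of 318 bases and are 89.9% identical, with 32 differences.

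RPS27L, a p53 target in human cells, had 84.97 CPM in replicate 1 and 54.88 in replicate 2, and made up 9.82% and 9.09% of its pair with RPS27 by CPM per coding kb. RPL26L1 had 882 and 553 counts, or 38.3 and 30.7 CPM, which is 6.17% and 6.96% of its pair with RPL26. RPL22L1, a paralog that can bind RNA and takes part in splicing, had 556 and 310 counts, or 24.1 and 17.2 CPM, and made up 5.02% and 4.63% of its pair with RPL22. RPL7L1, a protein of ribosome assembly, had 1134 counts in replicate 1 and 1303 in replicate 2, or 49.2 and 72.4 CPM, and 5.85% and 11.3% of its pair with RPL7. It was the only member tested that was higher in replicate 2. The coding identity of these 4 pairs was 77.8%, 84.1%, 68.6% and 56.4% in this order. The shares depend on the length used. Per kb of the median protein-coding transcript, RPS27L had 105.2 and 67.9 CPM, next to 2217 and 1559 for RPS27. RPL26L1 had 55.7 and 44.8, next to 1032 and 729.3 for RPL26. RPL22L1 had 44.3 and 31.6, next to 690.9 and 537.5 for RPL22. RPL7L1 had 13.1 and 19.2, next to 771.6 and 555.5 for RPL7. In that measure the share of RPL22L1 is higher and those of the others are lower.

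The paralogs with expression restricted to certain tissues were at the limit of detection. RPL3L, found in heart and skeletal muscle, had 1 count in replicate 1 and 0 in replicate 2, next to 55728 and 35281 counts of RPL3. RPL10L, which replaces RPL10 in male germ cells, had none, next to 29322 and 14866 counts of RPL10. RPL39L, which is high in testis, had 0 and 2 counts, next to 5150 and 2366 counts of RPL39, or 0 and 0.0845% of the pair by CPM per coding kb. Their coding sequences of 153 bases are 94.8% identical. They are printed in full from GRCh37, with the 8 differing bases in capitals, because within the coding sequence the values of this pair rest on reads that cover such a base. No 100-base window of RPL39L had a copy elsewhere, whereas every window of RPL39 had one on chromosome 6. A differing base thus separates the pair, but not RPL39 from that copy.
RPL39L: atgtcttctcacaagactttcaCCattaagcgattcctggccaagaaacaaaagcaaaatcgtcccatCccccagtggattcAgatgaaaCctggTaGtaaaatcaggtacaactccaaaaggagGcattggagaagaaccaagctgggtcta
RPL39: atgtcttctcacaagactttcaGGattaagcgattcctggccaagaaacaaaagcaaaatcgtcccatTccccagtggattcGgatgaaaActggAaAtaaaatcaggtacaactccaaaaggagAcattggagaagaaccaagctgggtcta

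Nearly the whole family was higher in replicate 1 than in replicate 2. Of the 80 members with at least 10 counts over both libraries, 77 were higher and 1, RPL7L1, was lower in replicate 1 in the exact binomial test of edgeR (Benjamini-Hochberg adjusted p below 0.05). The background of this test was high, with 57.7% of 13744 genes called, 27.6% as higher in replicate 1 and 30.1% as higher in replicate 2. It compares these libraries with counting error alone, and not conditions. RPS10 (adjusted p = 0.45 in edgeR) and RPL17 (adjusted p = 0.076 in edgeR) were not called, and RPS18 was called with few counts (adjusted p = 0.023 in edgeR). The median log2 ratio of replicate 1 over replicate 2 was 0.55 over the members and 0.01 over all genes tested. With a common dispersion, a coefficient of variation of 22.2%, the exact test of edgeR called no member and 0.291% of all genes. This dispersion could only be estimated from the same 2 libraries that the test compares, so few calls follow from its construction and it says nothing on the members. At an unadjusted p below 0.05 that test had 1 member, RPL36A, and 751 of all genes.

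The ratios of members not near 0 were alike from gene to gene. Over these 73 they ran from 0.19 to 0.84 on the log2 scale with an SD of 0.11. The SD over all genes tested was 0.58, but these include genes with as few as 10 counts over both libraries. They also cover all coding lengths, whereas the 73 members were kept for their level, so the SDs are not of like genes. Among all members tested, the largest log2 ratios were 1.00 for RPL36A, 0.90 for RPS18, 0.84 for RPS29, 0.76 for RPL39 and 0.74 for RPL13A. The first 2 rest on few counts. RPS29, a small zinc-binding protein of the small subunit, had 319.6 CPM in replicate 1 and 178.8 in replicate 2, and RPL13A, which also takes part in a translational silencing complex, had 447.4 and 268.3 CPM. The smallest were −0.56 for RPL7L1, 0.19 for RPL4, 0.30 for RPL3, 0.32 for RPL26L1 and 0.35 for RPL12. RPL12, a protein of the stalk base, had 1165 and 914.4 CPM.

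Replicate 1 had higher values of genes with short coding sequences across the whole table, with log2 ratios that fell with coding length (Spearman rho −0.555, 12580 genes). The members are short, with a median coding length of 453 bases against 1419 bases over all genes tested. Among the 73 members not near 0 the rho was −0.355, and the median log2 ratio was 0.57 for 36 members under 450 coding bases and 0.53 for 37 longer ones. RPL4 and RPL3, with 1281 and 1209 coding bases, had the smallest ratios of these. After the trend with transcript length was taken out, 74 members were called higher and 1 lower in replicate 1. The background was 53.6% of 12578 genes called, 25.8% as higher and 27.7% as lower in replicate 1. RPS18, RPL4 and RPL26L1 were no longer called, and the median over the members was 0.39. This trend was with the median length of protein-coding transcripts and not with coding length. For RPL14, with 7072 transcript and 645 coding bases, taking it out raised the log2 ratio from 0.51 to 1.06. No test was made against other genes of like coding length, so 0.39 does not measure a difference beyond coding length. The precursor RN45S moved in the same direction as the members, with a log2 ratio of 3.36, and FN1, the long gene of fibronectin, in the other, with 2027 CPM in replicate 1 and 5101 in replicate 2. The part of transcript length, ribosomal RNA or RNA quality in the difference of the members was not tested.

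**Figure D4:**
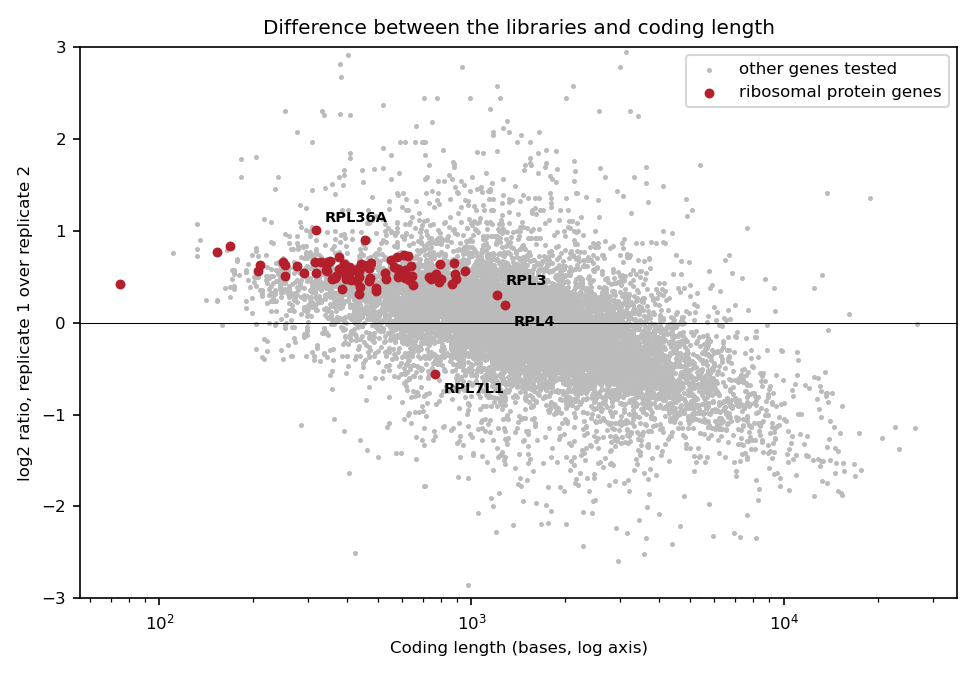
Log2 ratio of replicate 1 over replicate 2 against coding length (log axis) for the genes tested that have a coding length, with ribosomal protein genes in red and other genes in grey. The ratios fall with length over all genes (Spearman rho −0.555). The members have a median of 0.55 and run from −0.56 for RPL7L1 to 1.00 for RPL36A. Beyond 3 on either side lie 20 genes that are not shown.

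Other genes of the translation apparatus had smaller median ratios. The counts in each list are to be read against the 27.6% of all genes called higher and the 30.1% called lower in replicate 1 by the same test, which takes in counting error alone. Of 75 mitochondrial ribosomal protein genes tested, which encode the ribosome of the mitochondrion, 59 were higher and 2 lower in replicate 1, with a median log2 ratio of 0.33, or 0.15 after the length trend. Their levels were far lower, with a median of 49.21 CPM per kb of transcript against 1113 over the members. MRPS27 was the highest, with 284.7 and 299.9 CPM. Of 11 elongation factor genes, 7 were higher and 1 lower, with a median of 0.24. EEF1A1, which delivers aminoacyl-tRNA, had 9028 and 7725 CPM, EEF2, which drives translocation, had 5265 and 5309 CPM, and EEF1E1 was the lowest with 19.5 and 14.7 CPM. Of 37 initiation factor genes tested, 18 were higher and 9 lower, with a median of 0.10, and PABPC1, the poly(A)-binding protein and itself a product of a 5′ TOP messenger RNA, had 1768 and 1784 CPM. LARP1, which binds the 5′ TOP tract, had 378.1 and 532.3 CPM. Of 40 genes of ribosome assembly and ribosomal RNA transcription, 13 were higher and 11 lower, close to these shares, with a median of 0.02. Among these the nucleolar protein NPM1 was the highest, with 2361 and 2090 CPM, and GAR1 the lowest, with 21.4 and 16.1 CPM. FAU and GNB2L1 were both called higher in replicate 1, with log2 ratios of 0.44 and 0.34. The lists differ in gene length, and no test was made between them.

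**Figure D5:**
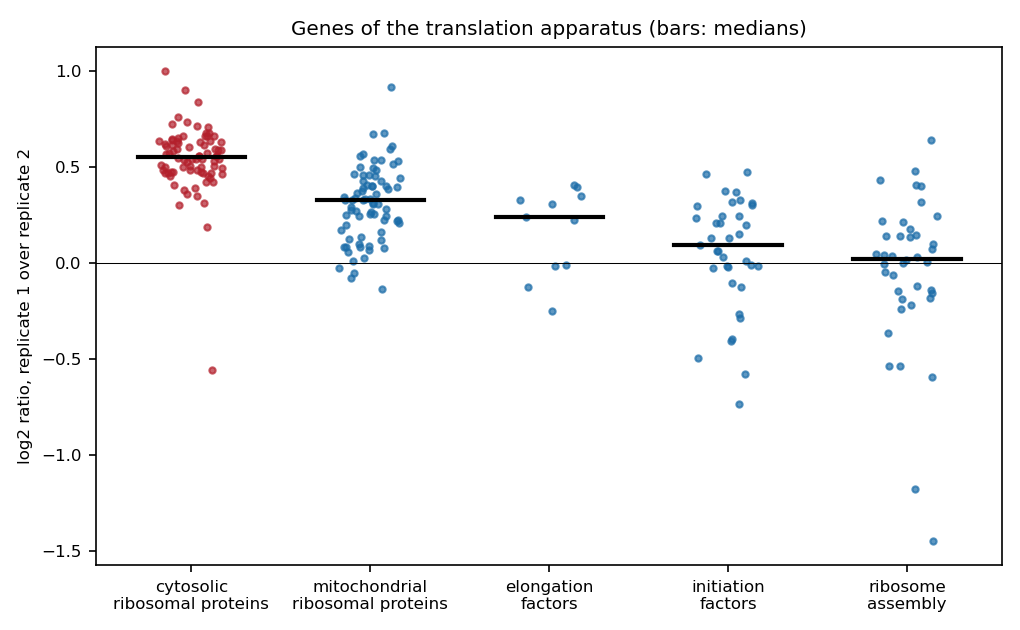
Log2 ratio of replicate 1 over replicate 2 of each gene tested in 5 lists of the translation apparatus, with horizontal bars at the medians. The medians are 0.55 for cytosolic and 0.33 for mitochondrial ribosomal proteins, 0.24 for elongation factors, 0.10 for initiation factors and 0.02 for ribosome assembly.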

How the data were processed

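For each library of doxorubicin-resistant SUM159 cells the authors deposited a table of raw read counts by gene symbol. According to the methods and processing notes, 100-base single-end reads were checked with FastQC, mapped to hg19 with HISAT2 and counted with HTSeq, and deepTools is also listed. Tool versions, annotation and strand setting are not given in the sources used here. Rows for reads outside genes were not used here.

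CPM were computed from library totals, as each library's value or their mean. Symbols were matched to GENCODE release 44 on GRCh37 (21201, or 90.7%, and 85 of 86 members), which gave coordinates and lengths. Length was the median of protein-coding transcripts or the coding sequence of the MANE Select or canonical transcript. Pairs were aligned for identity. Libraries were compared with the exact binomial test of edgeR over genes with at least 10 counts over both, ratios with 0.5 counts added (edgeR replaces the exact by a chi-square test at large counts), after the script was tested on simulated data. The length trend was a lowess of span 0.3.

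Members and lists were chosen with earlier results of these data known. Named genes were the 5 highest and lowest, members near 0, paralogs, stalk, anaemia and MDM2 genes, RPSA, RPS6 and RPS27A, the 5 largest log2 ratios in each direction, members with a readthrough or overlapping gene, neighbours of RPS18 and the extremes of each list. RPL37, RPS27, RPS12, RPL10A, EEF2, LARP1, SENP3-EIF4A1 and MRPS18B's position were added after values were seen. Values of some genes that the rule names are not reported here. Alternatives covered scaling, filter, length, test, dispersion and leaving out a library. Software was edgeR 4.0.16 and limma 3.58.1 in R 4.3.3, and biopython 1.88, scipy 1.17.1, pandas 2.3.3, numpy 2.4.6 and matplotlib 3.10.9 in Python 3.11.15.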

Additional observations from a re-analysis of the deposited data

How the results depend on the processing

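The coefficient of variation of CPM per kb over all members was 72.9% with the median transcript length, 93.9% with the union of exons and 64.6% with the coding length. Chosen after seeing the data, leaving out the members near 0 gave 56.4%, and 46.9% with the coding length. Leaving out each library in turn gave 72.7% to 73.5% for this spread, 555.9 to 834.6 CPM for the median member, 5.655% to 8.118% for the share of counts, 80 members with a mean count of at least 20 and 13 near 0. The number of members called between the libraries was 78, and 78 with TMM scaling, Fisher's exact test, no filter or a mean count of 20, 75 around the length trend, and 0 with a common dispersion in the exact test of edgeR. The dispersion was estimated from the 2 libraries compared, so this last count follows from its construction. The median log2 ratio was 0.39 as a residual from the length trend and 0.55 to 0.56 under the other scalings and pseudocounts. No paired analysis was possible because the series has 1 group, and a comparison of 2 libraries leaves none to leave out. Depth limits statements on members with few counts, such as RPL39L. For RPL21 a low level also cannot be told apart from reads that were not assigned to it.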
